A study of Mus musculus with 60 samples.

Results

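Public clonotypes are T cell receptor (TCR) β chain sequences that recur from library to library. They were chosen by their own values. In the CD4 TCRB table and in the CD8 TCRB table, each taken on its own, a clonotype was kept when its frequency was above 0 in at least 13 of the 15 library columns. The rule kept 387 of 85775 listed clonotypes in CD4 TCRB (0.451%) and 674 of 82447 in CD8 TCRB (0.817%). Every listed clonotype was found in at least 2 of the 18 libraries joined in its table, of which 3 are not analysed here. All listed clonotypes are therefore not the whole repertoire, since those of a single library are missing. Of the 387 CD4 clonotypes, 214 were found in 13 libraries, 113 in 14 and 60 in all 15. Of the 674 CD8 clonotypes, 294 were found in 13 libraries, 191 in 14 and 189 in all 15.

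TCRβ sequences were read from sorted H-2Kb+TCRβ+ CD4+ or CD8+ T cells of C57BL/6 donor mice that were WT, STAT3ko (Stat3 fl/fl with CD4-Cre, so that the deletion was confined to T cells by the CD4 promoter) or STAT3koPD-1ko (the same, in mice also lacking PD-1). In each table, 3 libraries, 1 for each genotype, came from donor spleen before hematopoietic cell transplantation (HCT). The other 12 came from liver and gut on day 6 after HCT, with 2 replicates for each genotype and tissue. The recipients were lethally irradiated BALB/c mice of WT genotype that were also given T cell-depleted bone marrow of WT C57BL/6 mice, and each day 6 library pooled cells of 3 recipients. Nothing says that libraries with the same replicate number shared recipients across groups, so p-values below measure the spread between pooled libraries. The liver replicate 1 and gut replicate 1 libraries shared more clonotypes with the before HCT library of their own genotype than with the others, as given below. They may thus not be independent of it, whereas the main tests treat all libraries as separate.

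A TCRβ chain is assembled in the thymus from 1 V, 1 D and 1 J segment, and its CDR3 is the stretch across the joins that contacts the presented peptide. Bases can be trimmed at each join, and terminal deoxynucleotidyl transferase can add bases that no segment holds. A CDR3 that needs few added bases, or that many different nucleotide sequences encode, can arise again and again in different animals, and such sequences are known as public. The TRB locus lies on mouse chromosome 6, where all V and J segments named here are on the plus strand (GRCm38, GENCODE annotation).

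The values are deposited frequencies, given here as percent of a library, and the read depth behind them is unknown. A value of 0 therefore means only that the clonotype was listed at 0. Each table had exactly 1 row for each CDR3 amino acid sequence (85775 distinct CDR3s on 85775 rows in CD4 TCRB and 82447 on 82447 in CD8 TCRB). The V, J and nucleotide sequence on a row are thus those of 1 representative, and receptors with the same CDR3 and another V were pooled into it. The gut replicate 2 libraries of all 3 genotypes stood apart: their listed clonotypes held 47.8 to 51.5% of the library in CD4 TCRB and 53.2 to 58.0% in CD8 TCRB, against 81.6 to 97.2% and 81.5 to 98.4% in the other libraries. The liver replicate 1 libraries also stood apart, because 52.8 to 64.6% of their CD4 and 52.2 to 61.6% of their CD8 clonotypes were also listed in the before HCT library of the same genotype, against 9.67 to 35.7% and 10.7 to 33.9% in the other day 6 libraries.

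The nucleotide sequences of the public clonotypes show which part of each junction was not encoded by a segment. Below are clonotypes that were public in both tables, in the row of the CD4 TCRB table. Bases that matched the V segment from the left or the J segment from the right are in lower case, and the bases between them are in capitals.
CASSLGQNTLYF (TRBV12-1, TRBJ2-4): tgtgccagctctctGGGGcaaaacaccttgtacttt
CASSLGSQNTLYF (TRBV12-1, TRBJ2-4): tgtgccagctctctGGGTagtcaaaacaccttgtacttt
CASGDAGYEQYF (TRBV13-2, TRBJ2-7): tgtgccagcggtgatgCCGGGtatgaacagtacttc
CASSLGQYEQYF (TRBV14, TRBJ2-7): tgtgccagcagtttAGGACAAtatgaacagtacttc
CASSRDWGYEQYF (TRBV16, TRBJ2-7): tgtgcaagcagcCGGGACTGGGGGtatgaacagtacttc

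The 2 D segments, which are read in the same direction, are shown for comparison with the capitals above. TRBD1 lies at chr6:41533201-41533212 and TRBD2 at chr6:41542163-41542176.
TRBD1: gggacagggggc
TRBD2: gggactgggggggc

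All 4 bases in capitals in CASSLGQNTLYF occur as a run in a D segment, so that 0 bases of its CDR3 were left without a template. In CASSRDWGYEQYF, 11 of the 12 bases in capitals were a run of TRBD2 and 1 base was left. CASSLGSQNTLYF had 1 such base, and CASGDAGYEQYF and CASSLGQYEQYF had 2 each. The CD8 TCRB row could hold another sequence for the same amino acids. For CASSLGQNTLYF it was the following, which again left 0 bases without a template. The CD8 TCRB rows of the other 4 left 4 bases for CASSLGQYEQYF, 1 each for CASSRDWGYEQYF and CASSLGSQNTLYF, and 0 for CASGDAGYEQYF.
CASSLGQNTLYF in CD8 TCRB: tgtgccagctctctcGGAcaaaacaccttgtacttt

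The most frequent public clonotypes of each table are shown next, because their values by library are described below. The first 3 are the most frequent CD4 clonotypes and the last 3 the most frequent CD8 clonotypes with a CDR3 that runs from cysteine to phenylalanine.
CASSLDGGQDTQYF (CD4, TRBV16, TRBJ2-5): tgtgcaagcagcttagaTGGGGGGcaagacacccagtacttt
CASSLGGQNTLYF (CD4, TRBV16, TRBJ2-4): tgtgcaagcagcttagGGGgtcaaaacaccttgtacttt
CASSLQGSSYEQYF (CD4, TRBV14, TRBJ2-7): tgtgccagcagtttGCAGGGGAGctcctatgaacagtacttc
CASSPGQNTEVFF (CD8, TRBV29, TRBJ1-1): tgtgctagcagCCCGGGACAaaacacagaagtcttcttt
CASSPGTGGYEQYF (CD8, TRBV19, TRBJ2-7): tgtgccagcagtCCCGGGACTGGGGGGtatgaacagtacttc
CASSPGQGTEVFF (CD8, TRBV29, TRBJ1-1): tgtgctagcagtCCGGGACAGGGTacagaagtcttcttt

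Both TRBV16 sequences left 0 bases without a template. Each of the other 4 left 3 such bases, which is the median of all listed clonotypes in both tables, where the median of the public clonotypes is 1. In the 3 CD8 sequences the bases in capitals began with CC before a run of D sequence.

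Across all public clonotypes the junctions were short and largely templated. The count was made on CDR3s that run from C to F or W, which were 284 of the 387 CD4 and 659 of the 674 CD8 clonotypes. After removing the bases matched by V, by J and by the longest run of a D segment, CD4 public clonotypes had a mean of 1.59 ± 1.73 untemplated bases (SD over clonotypes) and all listed CD4 clonotypes 3.73 ± 2.66. In CD8 TCRB the means were 1.55 ± 1.59 and 3.73 ± 2.44. No untemplated base was left in 29.2% of the CD4 and 33.1% of the CD8 public clonotypes, against 6.88% and 6.24% of all listed. At the other end, 4 or more such bases were left in 9.86% and 12.9% of the public clonotypes, against 46.6% and 49.0% of all listed. A run of D bases can match by chance, and the sequence is that of 1 representative, so these are counts under this definition and not the number of bases added.

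The number of untemplated bases fell step by step with the number of libraries in which a clonotype was listed. In CD4 TCRB the mean was 4.23 for clonotypes in at most 1 of the 15 libraries, 3.93 in 2 to 3, 2.47 in 4 to 6, 1.99 in 7 to 9, 1.74 in 10 to 12 and 1.59 in 13 to 15. In CD8 TCRB the same bins gave 4.22, 4.03, 2.62, 2.10, 1.93 and 1.55. Clonotypes of the lowest bin were also listed in a joined library not analysed here, so they are not clonotypes of a single library. The bases matched by V and by J changed little over the bins (in CD4 TCRB, means of 13.3 and 17.97 bases in the lowest bin and 13.97 and 18.7 in the highest), and the difference lay between them. The pattern was not carried by a few V segments. Within each of the 10 V segments with at least 10 such public clonotypes in CD4 TCRB, the public clonotypes had a lower mean (1.08 to 2.18 bases) than the other clonotypes of that V (3.26 to 4.24 bases), and so it was within all 13 such V segments in CD8 TCRB (0.393 to 2.20 against 3.26 to 4.21 bases). The lowest mean was that of the 28 CD8 clonotypes with TRBV13-2. These are descriptions over clonotypes with no test, since clonotypes are not replicates.

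**Figure D1:**
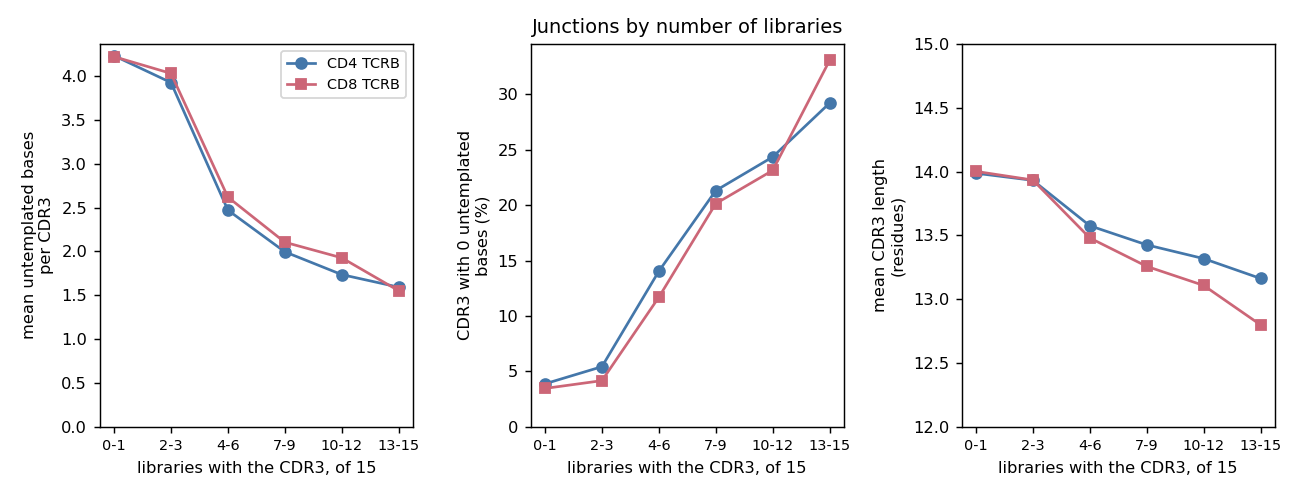
Mean number of untemplated bases per CDR3 (left), percent of CDR3s with 0 untemplated bases (middle) and mean CDR3 length in residues (right, axis from 12 to 15) against the number of libraries, of 15, in which the clonotype was listed, for CD4 TCRB (circles) and CD8 TCRB (squares), over CDR3s from C to F or W. In both tables untemplated bases and length are lowest, and the share with 0 untemplated bases highest, in the bin of 13 to 15 libraries.

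Public CDR3s were shorter. Over the same CDR3s the median length was 13 residues in public and 14 in all listed clonotypes of both tables. The mean was 13.2 ± 1.103 against 13.9 ± 1.34 residues in CD4 TCRB and 12.8 ± 1.35 against 13.8 ± 1.49 in CD8 TCRB (SD over clonotypes). Lengths of 15 or more residues made up 6.34% of CD4 and 7.28% of CD8 public clonotypes, and 31.7% and 33.1% of all listed. Lengths of 11 to 13 residues made up 55.3% and 57.5% of the public clonotypes, and 35.9% and 35.5% of all listed. Length was lower for the public clonotypes within each of the 10 CD4 and 13 CD8 V segments counted above. The shortest public CDR3s from C to F or W had 8 residues, among them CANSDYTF (TRBV15, TRBJ1-2), which was public in both tables.

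**Figure D2:**
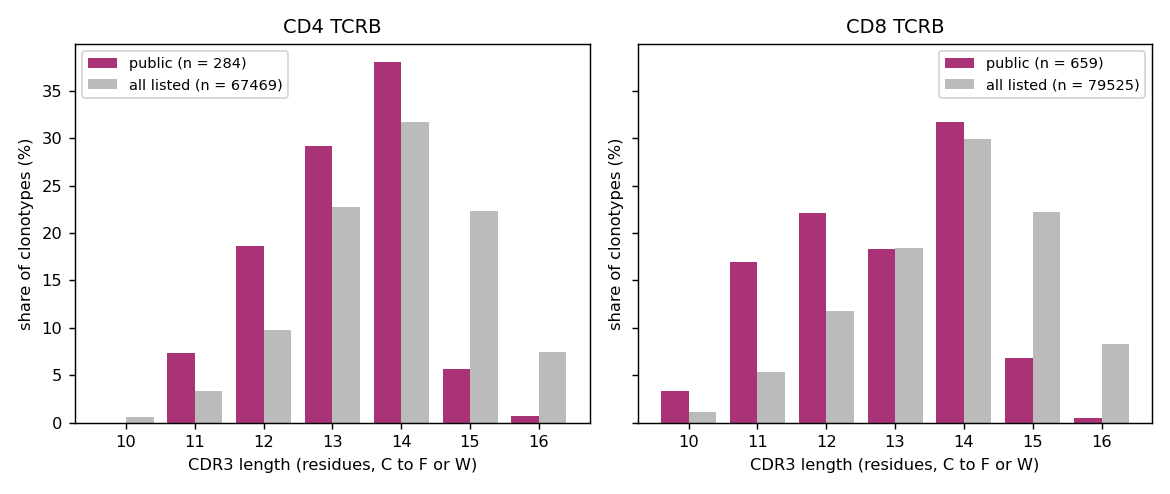
Share of clonotypes (percent, axis from 0) by CDR3 length in residues, counted from C to F or W, for public clonotypes and for all listed clonotypes of CD4 TCRB (left) and CD8 TCRB (right). A length of 14 residues is the most common in every set, and public clonotypes have larger shares at 11 and 12 and smaller shares at 15 and 16 than all listed.

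Not every public sequence was a usual CDR3. In CD4 TCRB, 103 of 387 (26.6%) did not run from C to F or W, against 21.3% of all listed, and in CD8 TCRB 15 of 674 (2.23%), against 3.54%. All 93 CD4 and all 4 CD8 public clonotypes with TRBV26 (the Vβ3 segment, chr6:41227505-41227993) were of this kind, because their sequence was listed from a point upstream of the usual cysteine. The stretch below, shown because all of them began with it, is part of the annotated Trbv26 transcript, and its capitals are the cysteine codon at which the CDR3 usually begins.
TRBV26 start: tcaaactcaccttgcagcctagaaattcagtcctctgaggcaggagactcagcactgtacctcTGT

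It puts 21 residues before that cysteine. Counted from the cysteine, the 93 CD4 clonotypes had a median length of 13 residues, against 14 for all 17761 listed clonotypes with that start. Their mean number of untemplated bases was 1.30, against 3.29 for all listed with that start. The junctions of the TRBV26 clonotypes were therefore like those of the other public clonotypes once counted from the same residue.

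A second group was labelled TRBV22, an annotated pseudogene (chr6:41212244-41212534). Of the 13 CD4 and 10 CD8 public clonotypes with this label, 8 and 9 shared the start below, which ends in bases of TRBD2 (capitals) and is shown because no V segment accounts for it.
TRBV22 start: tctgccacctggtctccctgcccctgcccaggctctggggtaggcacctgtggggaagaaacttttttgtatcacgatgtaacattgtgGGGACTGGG

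The 89 bases before the capitals were not found in the Trbv22 transcript or in any other of 141767 GENCODE transcripts. All 8 and all 9 clonotypes with this start used a TRBJ2 segment, and so did all 335 CD4 and all 337 CD8 listed clonotypes that began with it. TRBD2 lies between the TRBJ1 and the TRBJ2 segments. These sequences were 38 to 42 residues long and rare, with mean frequencies of 0.000734 to 0.00165% in CD4 TCRB and 0.000476 to 0.00174% in CD8 TCRB. The lower end of each range was the lowest mean of any public clonotype in that table.

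The most frequent public sequence in both tables was YAEQFF, of 6 residues, with the labels TRBV21 and TRBJ2-1. Its 18 bases are shown because all of them match a run of the TRBJ2-1 segment (chr6:41542754-41542803) that ends at the phenylalanine codon closing the CDR3, so that no V or D base was needed to spell it. The related GAEQFF (labels TRBV8 and TRBJ2-1) differs in its first bases, in capitals, and its other 16 bases match TRBJ2-1.
YAEQFF: tatgctgagcagttcttc
GAEQFF: GGtgctgagcagttcttc

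YAEQFF was listed in all 15 libraries of both tables. In CD4 TCRB its frequency before HCT was 0.389% (WT), 0.473% (STAT3ko) and 0.339% (STAT3koPD-1ko). It was 0.331 to 0.472% in the 6 liver libraries (median 0.432%) and 0.471 to 0.760% in the 6 gut libraries (median 0.707%). All gut values but 1 lay above all others, and the exception, STAT3koPD-1ko gut replicate 1 at 0.471%, lay just below the highest liver and before HCT values. In CD8 TCRB it was 0.247%, 0.257% and 0.210% before HCT in the same order, 0.220 to 0.270% in liver (median 0.241%) and 0.222 to 0.323% in gut (median 0.315%).

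The V segments of the public clonotypes differed between the tables. In CD4 TCRB, TRBV26 (93 clonotypes, 24.0% of the public against 20.8% of all listed) and TRBV16 (Vβ11, chr6:41151740-41152230; 91 clonotypes, 23.5% against 9.92%) led, followed by TRBV15 (Vβ12; 35, 9.04% against 4.96%), TRBV14 (28, 7.24% against 2.95%) and TRBV5 (21, 5.43% against 6.00%). TRBV16, TRBV14 and TRBV15 had the largest gain in share. TRBV23 (1 clonotype, 0.258% against 6.89%), TRBV13-2 (2, 0.517% against 5.80%) and TRBV13-1 (11, 2.84% against 6.23%) had the largest loss.

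In CD8 TCRB, TRBV29 (Vβ7, chr6:41271394-41271881) held 156 of the public clonotypes (23.1% against 11.4% of all listed). TRBV13-1 (78, 11.6% against 9.47%), TRBV12-1 (67, 9.94% against 6.41%), TRBV14 (58, 8.61% against 6.20%) and TRBV12-2 (54, 8.01% against 6.07%) came next. TRBV29, TRBV12-1 and TRBV14 gained most. TRBV1 (7, 1.04% against 4.30%), TRBV3 (9, 1.34% against 4.50%) and TRBV13-2 (28, 4.15% against 6.54%) lost most. The share of a V segment's listed clonotypes that were public reached 1.66% for TRBV29 in CD8 TCRB and 1.11% for TRBV14 in CD4 TCRB, among segments with at least 28 public clonotypes.

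**Figure D3:**
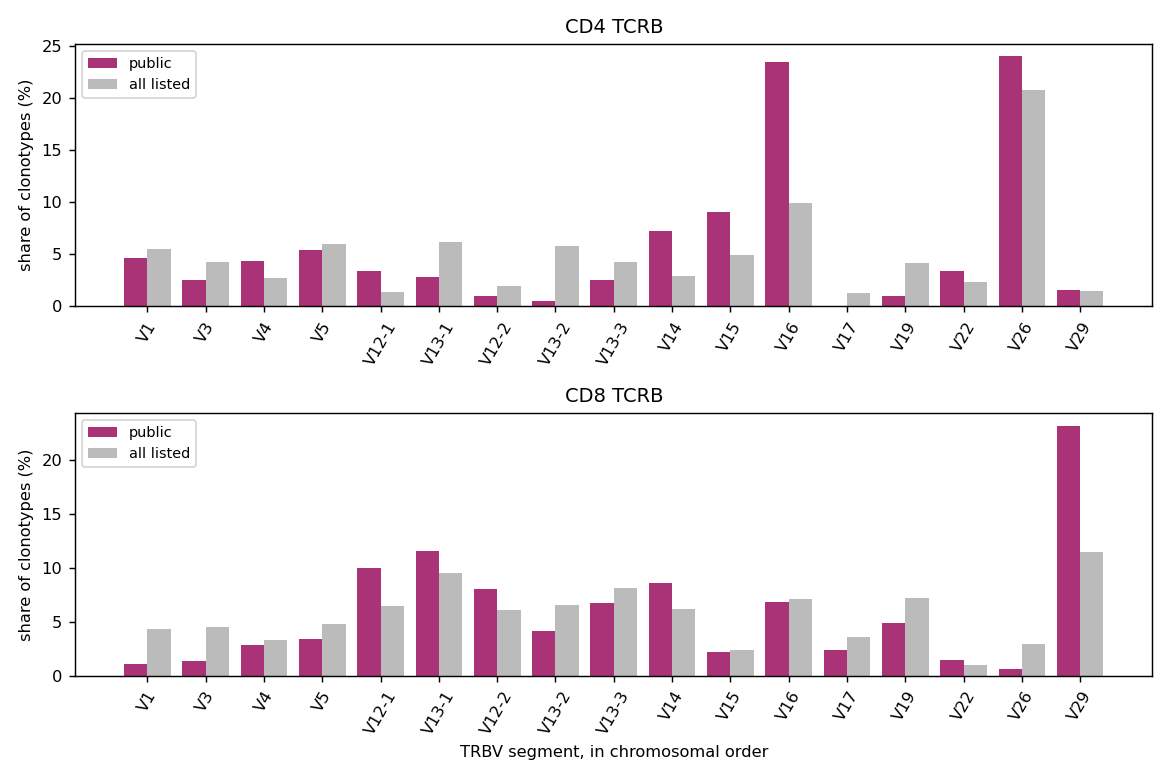
Share of clonotypes (percent, axis from 0) labelled with each TRBV segment, in chromosomal order, for public and for all listed clonotypes of CD4 TCRB (top) and CD8 TCRB (bottom), for segments with at least 10 public clonotypes over both tables. The public bars stand highest at V16 and V26 in CD4 TCRB and at V29 in CD8 TCRB.

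Taken as lists, groups of V segments also differed between the tables. Segments bound by superantigens of BALB/c mice (TRBV26, TRBV12-1, TRBV12-2, TRBV15 and TRBV16) held 236 of the 387 CD4 public clonotypes, 61.0% against 39.1% of all listed, and 186 of the 674 CD8 public clonotypes, 27.6% against 24.8%. The segments of this list did not move together. Among CD4 public clonotypes TRBV12-2 had a lower share than among all listed (1.03% against 2.00%). Among CD8 public clonotypes TRBV26 (0.593% against 2.93%), TRBV15 (2.23% against 2.38%) and TRBV16 (6.82% against 7.06%) had lower shares, and TRBV12-1 (9.94% against 6.41%) and TRBV12-2 (8.01% against 6.07%) had higher ones. The TRBV13 family (Vβ8) held 23 CD4 (5.94% against 16.3%) and 151 CD8 public clonotypes (22.4% against 24.2%). The segments used by invariant NKT cells (TRBV13-2, TRBV29 and TRBV1) held 26 CD4 (6.72% against 12.9%) and 191 CD8 public clonotypes (28.3% against 22.2%), of which 156 were TRBV29. The V segment is that of the representative on each row, and the counts inherit this.

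Among J segments, TRBJ2-7 (chr6:41543810-41543856) was the most used in both tables, with 84 CD4 public clonotypes (21.7% against 16.4% of all listed) and 259 CD8 public clonotypes (38.4% against 21.5%). In CD4 TCRB, TRBJ1-1 (chr6:41533864-41533911) came next with 75 (19.4% against 11.1%), then TRBJ2-5 (44, 11.4% against 11.8%), TRBJ2-4 (39, 10.1% against 9.73%) and TRBJ2-3 (36, 9.30% against 9.22%). TRBJ1-3 also gained (8.01% against 6.55%), and the losses were largest for TRBJ2-1 (4.13% against 9.32%), TRBJ1-6 (0.775% against 3.73%) and TRBJ1-4 (5.43% against 8.15%). In CD8 TCRB, TRBJ2-1 had 109 (16.2% against 14.4%), TRBJ1-1 101 (14.99% against 12.3%), TRBJ2-5 46 (6.82% against 10.3%) and TRBJ2-4 40 (5.93% against 7.72%). TRBJ1-4 (1.48% against 5.83%), TRBJ2-5 and TRBJ2-2 (2.67% against 5.61%) lost most. The TRBJ2 cluster as a whole held 61.8% of the CD4 public clonotypes, against 63.3% of all listed, and 75.5% of the CD8 public clonotypes, against 66.9%. The share of TRBJ2-7 rose from 20.3% in CD8 clonotypes of at most 1 library through 23.7% in 4 to 6 and 29.98% in 10 to 12, so that 13 to 15 libraries ended a gradient and did not stand alone.

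Many public CDR3s were near copies of each other. Of the 659 CD8 CDR3s from C to F or W, 592 (89.8%) had another public CDR3 of equal length that differed by 1 residue, and of the 284 CD4 CDR3s 234 (82.4%). Of all listed CDR3s from C to F or W, 15.6% in CD8 TCRB and 8.88% in CD4 TCRB had such a public neighbour, and of those found in 10 to 12 libraries 73.7% and 66.1%. With any listed CDR3 as the neighbour, the share was 99.8% of CD8 and 99.6% of CD4 public CDR3s, against 81.3% and 78.2% of all listed. Linking the public pairs gave 60 CD8 and 42 CD4 families of 2 or more. The largest CD8 family had 74 members of 12 residues, 72 of them with TRBJ2-7, around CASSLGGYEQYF (TRBV29), which had 20 direct neighbours. The largest CD4 family had 24 members of 13 residues, all with TRBJ1-1, and its most frequent one was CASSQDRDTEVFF (TRBV5). The ending YEQYF, encoded by TRBJ2-7, was found in 27.9% of CD8 and 23.6% of CD4 public CDR3s, against 12.6% and 11.2% of all listed. A CDR3 beginning with CASS was found in 89.8% and 88.7%, against 74.7% and 62.3%, and the pair LG in the middle in 20.9% and 23.2%, against 12.2% and 10.7%. At least 1 glycine was found in 79.2% and 72.5% of public CDR3s, against 80.3% and 79.6% of all listed.

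Most public clonotypes had low mean frequencies. The median of their mean frequencies over the 15 libraries was 0.00969% in CD4 TCRB and 0.0108% in CD8 TCRB, with 198 and 307 clonotypes below 0.01%. The highest were those of YAEQFF, at 0.507% and 0.262%, and the next highest 0.0859% and 0.104%. A public clonotype had to be frequent enough to be listed nearly everywhere: the median over all listed clonotypes was only 0.000335% in the CD4 and 0.000357% in the CD8 table, and the rule therefore chose for frequency as well as for sharing.

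The 387 CD4 public clonotypes summed to 4.48 to 6.80% of each library, and the 674 CD8 public clonotypes to 7.89 to 11.7%. In CD4 TCRB the sum before HCT was 5.04% (WT), 4.74% (STAT3ko) and 6.31% (STAT3koPD-1ko), with a mean of 5.36 ± 0.833% (SD, n = 3). It was 5.37 and 4.48% in the WT liver replicates, 4.95 and 4.75% in the STAT3ko liver replicates and 6.02 and 5.10% in the STAT3koPD-1ko liver replicates. In gut the WT replicates had 4.84 and 4.76%, the STAT3ko replicates 4.79 and 6.80% and the STAT3koPD-1ko replicates 4.54 and 5.86%. The ranges of the 3 tissues overlapped, and the 2 highest gut values were both replicate 2 libraries. The means were 5.11 ± 0.539% in the 6 liver libraries and 5.27 ± 0.884% in the 6 gut libraries, and the 3 gut replicate 1 libraries alone lay between 4.54 and 4.84%.

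In CD8 TCRB the sum before HCT was 9.74% (WT), 11.7% (STAT3ko) and 10.7% (STAT3koPD-1ko), with a mean of 10.7 ± 1.00% (SD, n = 3). It was 9.96 and 10.1% in the WT, 9.999 and 10.8% in the STAT3ko and 9.96 and 9.40% in the STAT3koPD-1ko liver replicates. It was 9.25 and 8.92% in the WT, 9.44 and 9.46% in the STAT3ko and 7.89 and 8.83% in the STAT3koPD-1ko gut replicates. Every before HCT library lay above every gut library, and so did every liver library but STAT3koPD-1ko replicate 2. Since these sums chose their own clonotypes they were not tested. Without YAEQFF the sums were 4.02 to 6.12% in CD4 TCRB and 7.57 to 11.5% in CD8 TCRB. As a share of the listed frequency only, the gut replicate 2 libraries moved to 9.95 to 13.9% in CD4 TCRB and 16.3 to 16.8% in CD8 TCRB, above the 5.23 to 6.50% and 9.69 to 12.3% of the other libraries, beside their low listed share.

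**Figure D4:**
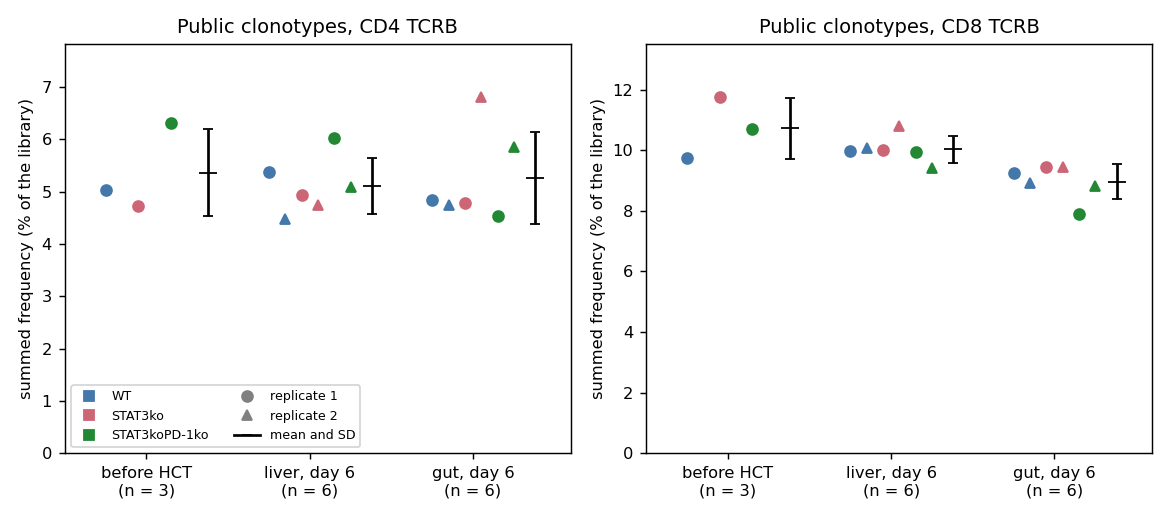
Summed frequency (percent of the library, axis from 0) of the 387 public CD4 clonotypes (left) and the 674 public CD8 clonotypes (right) in each of the 15 libraries, by tissue, genotype (colour) and replicate (marker), with mean and SD. The sums lie between 4.48 and 6.80% in CD4 TCRB and between 7.89 and 11.7% in CD8 TCRB, and in CD8 TCRB every gut library lies below every library before HCT.

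The number of public clonotypes at 0 differed between libraries and did not follow the number of listed clonotypes alone. In CD4 TCRB, 147 of the 387 were at 0 in the STAT3koPD-1ko gut replicate 2 library and 112 in the STAT3ko gut replicate 2 library, which listed 3418 and 3975 clonotypes in all. The lowest count was 5, in the WT gut replicate 1 library, which listed the most, 29839. In CD8 TCRB, 137, 95 and 106 of the 674 were at 0 in the WT, STAT3ko and STAT3koPD-1ko libraries before HCT, and 5, 6 and 10 in the 3 gut replicate 1 libraries. The libraries before HCT listed 8949 to 11700 CD8 clonotypes and the gut replicate 1 libraries 25941 to 27168. The gut replicate 2 libraries listed about as few CD8 clonotypes as those before HCT (8391 to 11381) but had fewer public clonotypes at 0, 31 in WT, 82 in STAT3ko and 49 in STAT3koPD-1ko. In CD4 TCRB, WT gut replicate 2 (8916 listed) had 25 at 0 and STAT3koPD-1ko before HCT (9117 listed) 67.

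Among the CD4 public clonotypes, the V groups were not spread over the tissues alike. The 93 TRBV26 clonotypes summed to 0.189 to 0.415% before HCT, 0.382 to 0.608% in liver and 1.12 to 1.76% in gut, so that the gut libraries lay above all others, in both replicates. All listed TRBV26 clonotypes moved with them, from 4.18 to 5.02% before HCT and 6.59 to 10.6% in liver to 11.7 to 22.9% in gut. The public ones made up 4.28 to 9.92% of the TRBV26 frequency before HCT, 5.75 to 6.47% in liver and 5.84 to 14.5% in gut. The 91 TRBV16 clonotypes summed to 1.54 to 2.52%, 1.11 to 1.71% and 0.677 to 1.84% in the same order, and the 28 TRBV14 clonotypes to 0.411 to 0.571%, 0.359 to 0.610% and 0.181 to 0.466%. Among the CD8 public clonotypes, the 156 with TRBV29 summed to 3.34 to 3.90% before HCT, 2.15 to 3.03% in liver and 1.91 to 2.49% in gut, so that the before HCT libraries lay above all day 6 libraries. The 151 TRBV13 family clonotypes overlapped across tissues, at 1.68 to 2.83%, 2.01 to 3.07% and 1.55 to 2.47%, and so did those with TRBV12-1 or TRBV12-2, at 1.46 to 1.56%, 1.40 to 2.21% and 1.31 to 1.80%.

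Single public clonotypes differed widely between libraries. The highest library of a clonotype was at the median 6.68 times its own median in CD4 TCRB and 6.58 times in CD8 TCRB. It was over 10 times the median for 123 CD4 and 189 CD8 clonotypes and at most 3 times for 36 and 59. At least 1 library had more than 0.1% for 52 CD4 and 98 CD8 public clonotypes. The highest library was 1 of the 3 before HCT libraries for 77 CD4 and 175 CD8 clonotypes, 1 of the 6 liver libraries for 142 and 288, and 1 of the 6 gut libraries for 168 and 211. The counts depend on these numbers of libraries and were not set against all listed clonotypes, so no tissue preference follows from them.

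The 7 most frequent CD4 public clonotypes after YAEQFF show this range, in percent of the library. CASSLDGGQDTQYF (TRBV16, TRBJ2-5) was at 0.0858, 0.173 and 0.139% before HCT (WT, STAT3ko and STAT3koPD-1ko, the order used for all that follow), 0.0362 to 0.144% in liver (median 0.0926%) and 0.0187 to 0.163% in gut (median 0.0308%). It was listed in all 15 libraries, and its tissues overlapped. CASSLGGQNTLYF (TRBV16, TRBJ2-4) was at 0.0207, 0.0117 and 0.294% before HCT, 0.00509 to 0.180% in liver (median 0.0230%) and 0.0173 to 0.123% in gut (median 0.0437%). Its highest value of each tissue was that of a STAT3koPD-1ko library, and the other STAT3koPD-1ko libraries were at 0.0282 and 0.0454%.

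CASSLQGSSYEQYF (TRBV14, TRBJ2-7) was at 0.136, 0.190 and 0.0352% before HCT, 0.00252 to 0.108% in liver (median 0.0227%) and 0 to 0.185% in gut (median 0.0342%). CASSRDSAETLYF (TRBV16, TRBJ2-3) was at 0.142, 0.0483 and 0.426% before HCT, 0.00202 to 0.0430% in liver (median 0.0146%) and 0.00180 to 0.0280% in gut (median 0.00397%). All 3 before HCT values of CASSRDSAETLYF lay above all 12 day 6 values. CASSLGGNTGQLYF (TRBV16, TRBJ2-2) went the other way in 2 libraries: it was at 0.0140, 0.00469 and 0% before HCT, at 0.00181 to 0.0209% in liver (median 0.00527%) and at 0.00444 to 0.409% in gut (median 0.0162%). Its 2 high values were those of the STAT3ko and STAT3koPD-1ko gut replicate 2 libraries, at 0.409 and 0.242%, and the other gut libraries had at most 0.0212%.

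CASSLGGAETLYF (TRBV16, TRBJ2-3) was at 0.0522, 0.0811 and 0.134% before HCT, 0.0297 to 0.0877% in liver (median 0.0501%) and 0 to 0.0577% in gut (median 0.0202%). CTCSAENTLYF (TRBV1, TRBJ2-4) was at 0.0382, 0.0103 and 0% before HCT, 0.00498 to 0.186% in liver (median 0.0129%) and 0 to 0.126% in gut (median 0.0222%). It was also the most frequent of the 214 CD4 clonotypes just inside the rule, in exactly 13 libraries. Of these 7 clonotypes, 5 had the label TRBV16, the Vβ11 segment.

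The 7 most frequent CD8 public clonotypes after YAEQFF were each listed in all 15 libraries. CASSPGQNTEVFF (TRBV29, TRBJ1-1) was at 0.0704, 0.0567 and 0.311% before HCT, 0.0723 to 0.176% in liver (median 0.104%) and 0.0529 to 0.115% in gut (median 0.0693%). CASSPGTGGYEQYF (TRBV19, TRBJ2-7) was at 0.0447, 0.0353 and 0.106% before HCT, 0.0475 to 0.199% in liver (median 0.134%) and 0.0640 to 0.185% in gut (median 0.0859%). No library had less than 0.0353% of either.

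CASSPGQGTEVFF (TRBV29, TRBJ1-1) was at 0.111, 0.319 and 0.181% before HCT, 0.00439 to 0.246% in liver (median 0.0563%) and 0.0171 to 0.0911% in gut (median 0.0437%), with every gut library below every before HCT library. A TRBV17, TRBJ2-7 clonotype of 14 residues was at 0.0749, 0.0549 and 0.117% before HCT, 0.0437 to 0.258% in liver (median 0.0805%) and 0.0275 to 0.0950% in gut (median 0.0331%). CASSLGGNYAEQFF (TRBV14, TRBJ2-1) was at 0.0941, 0.0676 and 0.0199% before HCT, 0.0292 to 0.131% in liver (median 0.0704%) and 0.0340 to 0.122% in gut (median 0.0717%), and its tissues overlapped throughout.

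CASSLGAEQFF (TRBV29, TRBJ2-1) was at 0.283, 0.0153 and 0.137% before HCT, 0.00705 to 0.116% in liver (median 0.0449%) and 0.0207 to 0.0958% in gut (median 0.0299%). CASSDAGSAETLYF (TRBV13-1, TRBJ2-3) was at 0.00879, 0.325 and 0.140% before HCT, 0.00439 to 0.101% in liver (median 0.0363%) and 0.0127 to 0.0462% in gut (median 0.0252%). For both, a single library before HCT held the highest value. Of these 7 clonotypes 3 had the label TRBV29.

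Clonotypes just inside and just outside the rule are given for comparison. In CD8 TCRB the most frequent clonotype in exactly 13 libraries was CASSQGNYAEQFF (TRBV29, TRBJ2-1), with a mean of 0.0454% and its highest value, 0.483%, in the WT library before HCT. The most frequent in exactly 12 libraries was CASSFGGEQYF (TRBV29, TRBJ2-7), with a mean of 0.0485% and its highest value, 0.383%, in the WT liver replicate 1 library. In CD4 TCRB, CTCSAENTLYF in 13 libraries had a mean of 0.0444%, and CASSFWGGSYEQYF (TRBV16, TRBJ2-7) in 12 libraries 0.0433%. In all, 239 CD4 and 326 CD8 clonotypes were in exactly 12 libraries, and their median mean frequency was 0.00569% and 0.00551%, against 0.00806% and 0.00778% in exactly 13.

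Few clonotypes were public in both tables. With CDR3, V and J all the same, 16 were, which is 4.13% of the CD4 and 2.37% of the CD8 public clonotypes. Of the 16, 9 ran from C to F or W, 4 were TRBV22 sequences with the TRBD2 start, 1 was a TRBV26 sequence, and 2 were YAEQFF and GAEQFF. A TRBJ2 segment was used by 15 of them, and TRBJ2-7 by 8. The same nucleotide sequence stood in both tables for 9 of the 16.

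After YAEQFF, the ones with the highest frequency in their lower table were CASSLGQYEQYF (TRBV14, TRBJ2-7), with means of 0.0161% (CD4 TCRB) and 0.0333% (CD8 TCRB), and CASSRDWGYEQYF (TRBV16, TRBJ2-7), with 0.0159 and 0.0184%. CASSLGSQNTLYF (TRBV12-1, TRBJ2-4) had 0.0349 and 0.00958%. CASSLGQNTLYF, with the same segments, had 0.00797 and 0.0238%. GAEQFF had 0.0133 and 0.00663%, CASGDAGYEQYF (TRBV13-2, TRBJ2-7) 0.00555 and 0.0200%, and the 35-residue TRBV26, TRBJ2-7 sequence 0.00645 and 0.00500%. The CDR3 and its segments gave no fixed side: 10 of the 16 had the higher mean in CD4 TCRB and 6 in CD8 TCRB.

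By library, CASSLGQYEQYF ran from 0 to 0.0306% in CD4 TCRB (median 0.0150%) and from 0.00933 to 0.0765% in CD8 TCRB (median 0.0302%). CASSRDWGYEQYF ran from 0 to 0.0544% (median 0.00680%) and from 0.000676 to 0.0484% (median 0.0152%), with its highest value in the STAT3ko library before HCT in both tables. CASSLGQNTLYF was at 0 in the WT library before HCT of both tables and at most 0.0396% in CD4 TCRB and 0.0826% in CD8 TCRB. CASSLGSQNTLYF was lower before HCT in CD8 TCRB, at 0.00191, 0.000364 and 0.00497%, than its medians of 0.0107% in liver and 0.0110% in gut, and in CD4 TCRB it was at 0.0667, 0.0520 and 0.0106% before HCT, with medians of 0.0362% and 0.0290%.

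The overlap was larger for the CDR3 alone. The same CDR3 amino acid sequence was shared by the public clonotypes of both tables in 105 cases, which is 27.1% of the CD4 and 15.6% of the CD8 public clonotypes. For all 105 the J segment was the same, and for 89 the V segment on the row differed. Examples are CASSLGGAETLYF (TRBV16 in CD4 TCRB, TRBV12-1 in CD8 TCRB), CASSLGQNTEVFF (TRBV15 and TRBV29) and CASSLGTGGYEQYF (TRBV15 and TRBV14). TRBV16 was the CD4 label in 27 and TRBV29 the CD8 label in 29 of the 89. Over all listed clonotypes, 20.9% of the CD4 and 21.8% of the CD8 CDR3s were in both tables, whereas 81.1% of the public CD4 and 94.5% of the public CD8 CDR3s were listed at least somewhere in the other table. With V and J required as well, 88 of the 387 (22.7%) and 158 of the 674 (23.4%) were, against 7.32 and 7.61% of all listed.

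To ask whether the amount of public sequence depends on tissue or genotype without using the values that chose it, clonotypes chosen in one table were summed in the other. Both kinds of cells were sorted from lymphocytes, of recipients on day 6 and of donor spleen before HCT, and no label says whether a CD4 and a CD8 library shared animals, so the values are separate measurements that may not be of separate animals. The 674 CD8-chosen clonotypes summed to 0.822 to 1.28% of the CD4 libraries (median 1.06%), with 40 to 95 of them listed. The 387 CD4-chosen clonotypes summed to 0.376 to 0.734% of the CD8 libraries (median 0.466%), with 24 to 61 listed. YAEQFF was a large part of both: without it the sums were 0.386 to 0.795% and 0.129 to 0.499%. A difference of mean log2 summed percent was tested with an exact two-sided permutation test over libraries, and p-values were adjusted over the 12 tests by the Benjamini-Hochberg method.

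None of the 12 tests passed an adjusted p of 0.05, with the lowest at 0.143, and 1 had an unadjusted p under 0.05. The genotype tests could not pass, since their smallest possible exact permutation p is 0.0556. A before HCT test, even at its smallest possible p, needed low p-values in other tests to pass adjustment. The absence of a passing test is therefore not evidence of no difference. In that test, CD4-chosen clonotypes in CD8 TCRB were at 0.376, 0.399 and 0.406% before HCT (mean 0.394 ± 0.0157%, SD, n = 3) and at 0.466 to 0.626% in gut (mean 0.569 ± 0.0598%, SD, n = 6). The gut mean was higher by 0.52 on the log2 scale, all 6 gut libraries lay above all 3 before HCT libraries, the exact permutation p of 0.0119 is the smallest that the 84 arrangements allow, and the adjusted p was 0.143. Without the gut replicate 2 libraries the difference was 0.47 (exact permutation p = 0.1, the smallest for 3 against 3). The gut libraries left in it were the replicate 1 libraries, which shared more clonotypes with the before HCT library of their genotype. Counted by CDR3 alone, whatever the V and J, the difference was 0.09 (exact permutation p = 0.440, with 2.38 to 3.01% before HCT and 2.45 to 3.12% in gut).

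The other tissue differences did not pass the test either, and the ranges of the tissues overlapped. CD4-chosen clonotypes in CD8 TCRB had a mean of 0.487 ± 0.132% in liver (SD, n = 6), 0.27 above before HCT on the log2 scale (exact permutation p = 0.238), and gut was 0.25 above liver (exact permutation p = 0.147). Without the liver replicate 1 libraries these differences were 0.46 and 0.07 (exact permutation p = 0.2 and 0.762). The liver libraries ran from 0.392 to 0.734%, where the highest was STAT3ko replicate 2. CD8-chosen clonotypes in CD4 TCRB were at 0.871, 1.06 and 0.943% before HCT (mean 0.958 ± 0.0963%, SD, n = 3), 1.03 ± 0.178% in the 6 liver libraries and 1.101 ± 0.163% in the 6 gut libraries. Liver was 0.09 and gut 0.19 above before HCT on the log2 scale (exact permutation p = 0.583 and 0.190), and gut was 0.10 above liver (exact permutation p = 0.448). Without the liver replicate 1 libraries liver was 0.0019 above before HCT and gut 0.19 above liver (exact permutation p = 1 and 0.226). The adjusted p-values of these 5 exact permutation tests over all libraries were between 0.714 and 0.733.

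The direction of the CD8-chosen differences between gut and the other tissues was not stable, and the cause was not tested. Without YAEQFF the sums were 0.482 to 0.604% before HCT, 0.460 to 0.795% in liver and 0.386 to 0.540% in gut. Restricted to CDR3s from C to F or W, a choice made after seeing the data, the CD8-chosen clonotypes were lower in gut than in liver by 0.62 on the log2 scale (exact permutation p = 0.00433, adjusted p = 0.0519 over 12 tests) and lower in gut than before HCT by 0.51 (exact permutation p = 0.0238, adjusted p = 0.0952). Neither passed adjustment. Matched by CDR3 alone, gut was lower than before HCT by 0.29 and lower than liver by 0.21 (exact permutation p = 0.0595 and 0.0411, adjusted p = 0.357 for both). Other alternatives moved gut up. As percent of the listed frequency it was 0.73 above before HCT and 0.60 above liver (exact permutation p = 0.0714 and 0.0433, adjusted p = 0.214 and 0.173). With clonotypes chosen in all 15 libraries it was 0.58 and 0.44 above (exact permutation p = 0.0357 and 0.0195, adjusted p = 0.143 for both). YAEQFF itself was at 0.471 to 0.760% in the CD4 gut libraries and at 0.331 to 0.473% in the other CD4 libraries.

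Between genotypes the 8 day 6 libraries of each pair were compared with labels permuted within tissue, which allows 36 arrangements and no p below 0.0556. CD8-chosen clonotypes in CD4 TCRB had means of 1.00 ± 0.184% in WT, 1.09 ± 0.195% in STAT3ko and 1.11 ± 0.146% in STAT3koPD-1ko (SD, n = 4 each). CD4-chosen clonotypes in CD8 TCRB had means of 0.489 ± 0.0950%, 0.563 ± 0.142% and 0.531 ± 0.0935% in the same order. STAT3ko differed from WT by 0.13 and 0.18 on the log2 scale, STAT3koPD-1ko from STAT3ko by 0.02 and -0.06, and STAT3koPD-1ko from WT by 0.15 and 0.12. The exact permutation p-values were between 0.5 and 0.944. The ranges of the genotypes overlapped in all 6 comparisons.

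**Figure D5:**
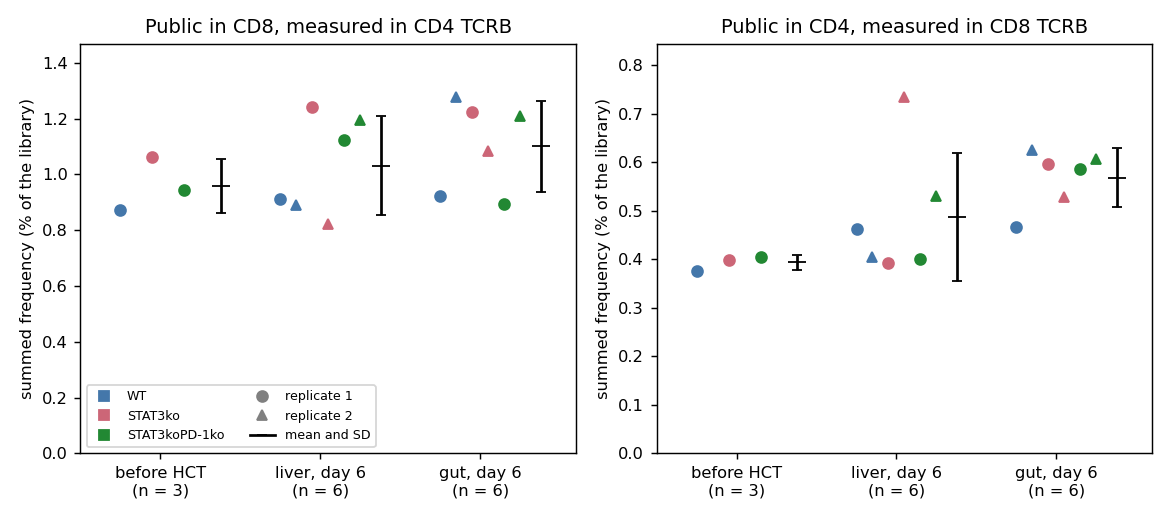
Summed frequency (percent of the library, axis from 0) of clonotypes that were public in CD8 TCRB, measured in the CD4 libraries (left), and of clonotypes public in CD4 TCRB, measured in the CD8 libraries (right), by tissue, genotype (colour) and replicate (marker), with mean and SD. On the right the 6 gut libraries (0.466 to 0.626%) lie above the 3 libraries before HCT (0.376 to 0.406%), while on the left the tissues overlap.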

How the data were processed

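TCRβ CDR3 libraries were made by the authors with the Takara SMARTer mouse TCR kit from sorted CD4+ or CD8+ T cells, sequenced as paired reads on a MiSeq, assembled with MiXCR 3.0 at default settings and joined with VDJtools 1.1.7, in 2 batches. The study's methods describe a batch as cells of 3 mice, as each numbered day 6 library is, without stating that the replicate numbers are the batches. The deposited values are the fraction of a library held by each clonotype, which was multiplied to give percent. Of 18 libraries in each join, 15 were used and 3 are not analysed here. The TCRα tables were not used. The labels give mm10, and V, D and J sequences and coordinates were taken from GENCODE M21 (GRCm38), in which all 29 V and 12 J names matched. The exact permutation tests were written in Python 3.11.15 with numpy 2.4.6 and pandas 2.3.3 and tested on simulated data. The members and lists were chosen with earlier results of these data known. Clonotypes named in the text are, per table, the 8 with the highest mean frequency, the 8 with the highest smaller mean among those public in both tables, and the most frequent in exactly 13 and exactly 12 libraries. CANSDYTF, the family leaders and the CDR3s with another V in each table were chosen after their values were seen. Segments named are the 5 most used and the 3 with the largest gain and loss of share. P-values were adjusted by Benjamini-Hochberg over 12 tests. CDR3s of 15 or more residues, and the TRBV17, TRBJ2-7 one of 14 residues, are named by V, J and length. Alternatives were other limits on the number of libraries, a frequency above 1e-05, other identities, other measures, and libraries left out.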

Additional observations from a re-analysis of the deposited data

Results flagged for a closer look

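Among the 6 liver or 6 gut libraries of a table, 14 of 74 groups checked (sums and named clonotypes) had a highest library whose gap to the next, relative to the group's range, was above Dixon's critical value. Chance flags about 1 in 20 groups, but these clonotypes were named for their high mean frequency over the same libraries, which favours a clonotype with 1 very high library, so the count cannot be read against chance. None of the sums was among them. In CD4 liver they were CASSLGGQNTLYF (TRBV16) at 0.180% in STAT3koPD-1ko replicate 1, where the next library had 0.0322%, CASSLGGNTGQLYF (TRBV16) at 0.0209% in WT replicate 1 and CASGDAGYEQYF (TRBV13-2) at 0.0294% in STAT3ko replicate 1. In CD8 liver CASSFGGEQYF (TRBV29), which was in 12 libraries, was at 0.383% in WT replicate 1, where the next had 0.0363%. In CD4 gut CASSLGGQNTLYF was at 0.123% in STAT3koPD-1ko replicate 2, and in STAT3ko replicate 2 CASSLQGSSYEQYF (TRBV14) was at 0.185% and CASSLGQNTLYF (TRBV12-1) at 0.0396%. In WT gut replicate 1, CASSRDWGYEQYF (TRBV16) was at 0.0520% and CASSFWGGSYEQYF (TRBV16), which was in 12 libraries, at 0.0886%. In CD8 gut, STAT3ko replicate 2 had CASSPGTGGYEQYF (TRBV19) at 0.185% and the TRBV17, TRBJ2-7 clonotype of 14 residues at 0.0950%, WT replicate 1 had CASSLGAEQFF (TRBV29) at 0.0958% and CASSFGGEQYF at 0.0517%, and STAT3koPD-1ko replicate 1 had GAEQFF at 0.0286%. Of the 14, 5 were in gut replicate 2, 4 in liver replicate 1 and 5 in gut replicate 1 libraries. The first stood apart above by their listed share, and the other libraries by the clonotypes shared with their genotype before HCT.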

How the results depend on the processing

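The number of public clonotypes followed the limit. In CD4 TCRB it was 626 for at least 12 libraries, 173 for at least 14, 60 for all 15 and 183 for a frequency above 1e-05. In CD8 TCRB it was 1000, 380, 189 and 356. With 1 library left out and at least 12 of the other 14 required, the counts ran from 399 to 521 and from 681 to 801. In the 12 tests no alternative brought an adjusted exact permutation p under 0.05 (lowest 0.0519), which the genotype tests could not reach with so few libraries. Where a direction turned the cause was not tested. The values below are differences on the log2 scale.

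For CD8-chosen clonotypes in CD4 TCRB, gut against before HCT turned to -0.32 without the 5 most frequent, -0.51 for CDR3s from C to F or W only and -0.29 when matched by CDR3 alone. Gut against liver turned to -0.44, -0.62 and -0.21 under these, to -0.22 as the percent of chosen clonotypes listed and to -0.022 without gut replicate 2 of every genotype. As percent of the listed frequency, gut against before HCT rose to 0.73 and gut against liver to 0.60. With clonotypes chosen in all 15 libraries they rose to 0.58 and 0.44. Liver against before HCT turned to -0.077 by CDR3 alone. STAT3ko against WT turned to -0.37 as the percent listed and to -0.015 without liver replicate 1 of every genotype. STAT3koPD-1ko against WT turned to -0.36 as the percent listed and to -0.0028 by CDR3 alone. STAT3koPD-1ko against STAT3ko turned to -0.13 without gut replicate 2 of every genotype and to -0.041 by CDR3 alone.

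For CD4-chosen clonotypes in CD8 TCRB, STAT3koPD-1ko against STAT3ko turned to 0.028 as percent of the listed frequency, 0.16 with clonotypes chosen in all 15 libraries and 0.29 as the percent of chosen clonotypes listed. STAT3ko against WT turned to -0.15 as the percent listed. STAT3koPD-1ko against WT turned to -0.12 for CDR3s from C to F or W only and to -0.015 by CDR3 alone. Gut against before HCT kept its direction in all 17 alternatives, from 0.09 to 1.1003. Liver against before HCT kept its direction in all 17, but its size ran from 0.04 to 0.99. For gut against liver the direction held in all 21, with sizes from 0.03 to 0.70. Restricting to CDR3s from C to F or W and matching by CDR3 alone were chosen after seeing the data.

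Leaving out 1 library at a time gave, for CD8-chosen clonotypes, 0.03 to 0.17 (liver against before HCT), 0.12 to 0.27 (gut against before HCT), 0.04 to 0.16 (gut against liver), -0.023 to 0.28 (STAT3ko against WT), -0.12 to 0.17 (STAT3koPD-1ko against STAT3ko) and 0.03 to 0.27 (STAT3koPD-1ko against WT). For CD4-chosen clonotypes the ranges were 0.14 to 0.32, 0.49 to 0.58, 0.20 to 0.38, -0.042 to 0.41, -0.29 to 0.16 and 0.01 to 0.23 in the same order. Of these, STAT3ko against WT turned without STAT3ko liver replicate 1 (CD8-chosen) or replicate 2 (CD4-chosen). STAT3koPD-1ko against STAT3ko turned without STAT3ko liver replicate 2 in both, without STAT3ko or STAT3koPD-1ko gut replicate 2 for CD8-chosen and without STAT3koPD-1ko liver replicate 1 for CD4-chosen clonotypes.

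Within a tissue, the frequencies of single public clonotypes did not deviate together in same-numbered libraries of different genotypes. The correlations of deviations ran from -0.04 to 0.07 over 12 pairs. As whole libraries, gut replicate 2 and liver replicate 1 of all 3 genotypes still stood apart. Liver and gut libraries of the same genotype and number were not compared in this way, so a link between them was not tested. With the replicate number as a replicate block, adjusted exact permutation p-values of the 8 day 6 tests were 0.75 to 0.875. The block allows 16 arrangements for a genotype test (smallest p 0.125) and 64 for gut against liver (smallest p 0.0312), so no adjusted p under 0.05 was possible and nothing about stability follows. The read depth is unknown, so how far a value of 0 reflects depth could not be measured.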
